A study of Azumapecten farreri with 9 samples.

Results

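The microRNAs miR-71 and miR-2 were followed in hemocytes, the circulating immune cells, of the Zhikong scallop Azumapecten farreri (also named Chlamys farreri), after injection of vesicles or of buffer. Lines of the deposited table were taken by name, as every form of miR-2, miR-13 or miR-71. This gave 14 of 417 lines, of which 12 were miR-2 lines, 2 were miR-71 lines and 0 were miR-13 lines. The 9 small RNA libraries fall into 3 groups of 3: scallops injected with phosphate-buffered saline (PBS), scallops injected with normal exosomes, and scallops injected with what the design text ties to a stimulation by LPS, here called LPS exosomes. LPS (lipopolysaccharide) is part of the outer membrane of Gram-negative bacteria and is used to mimic infection, and exosomes are vesicles released by cells that can bring RNA to other cells. The labels name no strain, age, genetic change, dose, time after injection or source cells of the exosomes. They also do not say whether a library stands for 1 animal or a pool, so every p-value here speaks of the spread among libraries, part of which can be technical.

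In many protostome animals miR-71 and several copies of miR-2 lie close together in the genome and are cut from neighbouring hairpins. miR-71 is known from nematodes for roles in lifespan, stress resistance and the left-right difference of a pair of odour neurons. The miR-2 family is known from Drosophila, where its members share a seed that pairs with the K box motif in messenger RNAs, among them targets of the Notch pathway and the death-promoting genes reaper, grim and sickle. A microRNA finds its targets mainly through its seed, here bases 2 to 8 counted from the 5′ end, while its remaining bases and its ends can differ between forms.

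The main line of miR-2a, miR-2b and miR-2c and both arms of miR-71 are shown first by sequence, since the names of some lines do not show which sequence they carry. They are the deposited ones, 5′ to 3′, with T for U and the seed in capitals. In a name, the prefix is the species of the closest registered microRNA (mle, the sea slug Melibe leonina; lgi, the limpet Lottia gigantea), L and R give bases lost or gained at the 5′ and 3′ ends, and ss gives substitutions.
mle-miR-71-5p: tGAAAGACatgggtagtgagatg
mle-miR-71-3p_R-1_1ss10TC: cCTTACTAccctgtcttttgc
mle-miR-2a-3p_R-1: tATCACAGcctgcttggatcagt
mle-miR-2b-3p_1ss11AT: tATCACAGcctgctttgatgagc
mle-miR-2c-3p: tATCACAGccagctttgatgaca
Of the 14 lines, 10 carried the seed ATCACAG. miR-71-5p had GAAAGAC and its opposite arm CTTACTA. The remaining 2 were miR-2 lines whose 5′ end lay elsewhere, which gives them other seeds.

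Sorted by sequence, the 12 miR-2 lines formed 5 groups in which the shorter lines lie whole within a longer one. The first was miR-2a, with the 23-base line above and lgi-miR-2d_R+2, which holds it whole and adds 2 bases at the 3′ end. The second was a miR-2a variant led by mle-miR-2a-3p_2ss18AT24AT, with 2 shorter lines lying within it. The third, miR-2b, had 4 lines, and the names of 2 of these point to other family members. They are shown because the sequence, not the name, places them.
mle-miR-2b-3p_R-1_1ss11AT: tATCACAGcctgctttgatgag
mle-miR-2a-3p_R-6_1ss16GT: tATCACAGcctgctttga
mle-miR-2c-3p_L+1_3ss12AT23CG24AC: aTATCACAgcctgctttgatgagc
The line named from miR-2a is the first 18 bases of miR-2b. The line named from miR-2c is the whole miR-2b line with 1 more base at the 5′ end, which moves its seed to TATCACA. The next group was miR-2c with its 21-base form lgi-miR-2c_R-2, and the last was the single line mle-miR-2b-3p_1ss9CT. Values of nested lines are uncertain, since reads could be split between them and the labels do not say how they were assigned.

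Abundance was read from the deposited normalized counts, which the authors scaled by a rule that the labels do not state. Judged by the smallest step between values, a library held between 7063405 and 15676183 reads in listed lines. Of the 417 lines, 41 share their sequence with another line. Their reads may count more than once in these totals, in the shares of the signal and in the scaling to equal totals. Normalized totals were 4291842 to 5816235 in PBS, 5479302 to 6337019 after normal exosomes and 4002817 to 5277820 after LPS exosomes, so the totals of the exosome groups did not overlap. On the first 2 principal components of the 162 tested lines, a pair of libraries stood apart, LPS exosomes replicate 1 (-15.41 on component 1) and PBS replicate 1 (13.88 on component 2). No marker microRNA of scallop hemocytes was available to check the tissue. Of marker families of other tissues, 2 of 4 muscle families (miR-1 and miR-133) were listed and held 3.09% to 3.55% of the signal in PBS, 2.83% to 4.20% after normal exosomes and 3.45% to 4.18% after LPS exosomes, with 0 calls among their 5 tested lines, while the 3 neural lines held at most 0.000166% in any library. Over all tested lines, 4.32% were called in each contrast.

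Together the 14 lines held 2.83% ± 0.368 (SD, n = 9) of the signal, from 2.33% in PBS replicate 2 to 3.57% in PBS replicate 1. Nearly all of it was 3 sequences. mle-miR-2b-3p_1ss11AT, the eighth line of the table by mean, held 1.37% ± 0.323, mle-miR-71-5p, the ninth, held 0.861% ± 0.131, and mle-miR-2a-3p_R-1 held 0.529% ± 0.0795. Within the miR-2 lines, the main miR-2b line made up 61.1% to 77.2% and miR-2a 18.3% to 33.4%. All lines with the seed ATCACAG, counting 4 predicted lines outside the family names, came to 2.05% ± 0.358 of the signal.

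**Figure D1:**
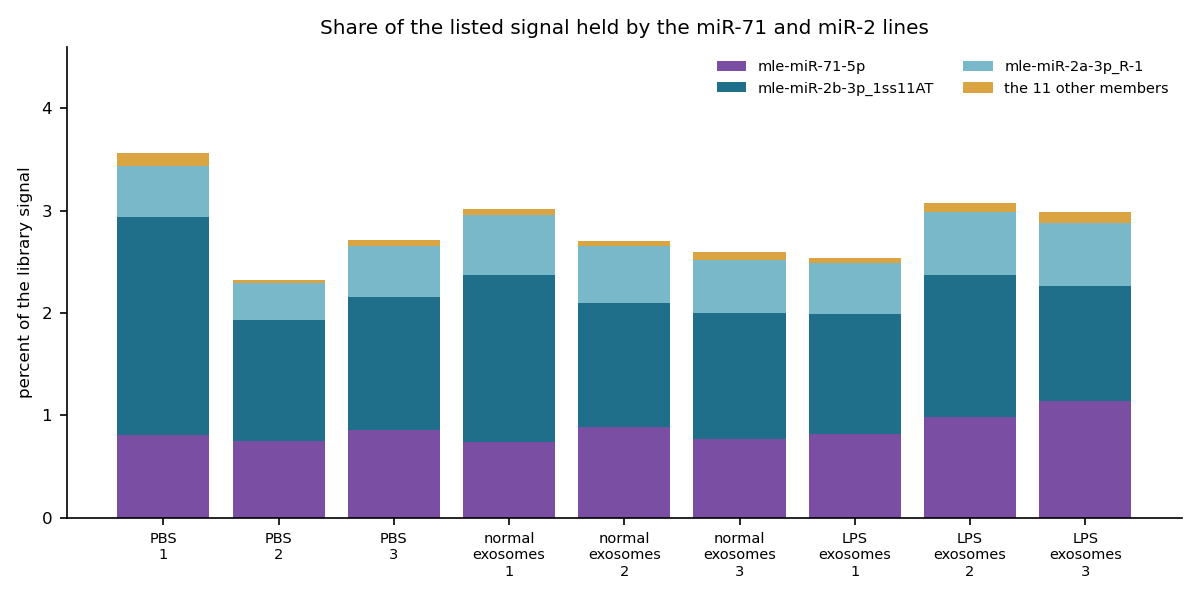
Share of each library's listed signal (percent, stacked bars) held by mle-miR-71-5p, mle-miR-2b-3p_1ss11AT, mle-miR-2a-3p_R-1 and the 11 other members, for 9 libraries in 3 groups. The bars reach 2.33% to 3.57%, and the highest is PBS replicate 1, where miR-2b alone held 2.13%.

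mle-miR-71-5p varied little. It stood at 34525, 43305 and 43077 in the PBS libraries, at 46944, 50792 and 42245 after normal exosomes, and at 43089, 45004 and 45726 after LPS exosomes. The groups overlapped, the lowest value was PBS replicate 1, and the highest of the 9 libraries was 1.47 times the lowest. The SD of its log2 value over the 9 libraries was 0.151, the third lowest of the 162 tested lines. Group means ran in the order PBS (40302 ± 5005, SD, n = 3), LPS exosomes (44606 ± 1363) and normal exosomes (46660 ± 4280), and no neighbours in that order differed beyond their spread. The difference from PBS was a log2 fold change of 0.22 with normal exosomes (95% interval -0.09 to 0.52; limma adjusted p = 0.446) and 0.15 with LPS exosomes (-0.15 to 0.46; limma adjusted p = 0.558). Without PBS replicate 1 these differences of mle-miR-71-5p were 0.11 and 0.046.

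As a share of the library, miR-71-5p held 0.803% ± 0.0574 (SD, n = 3) in PBS, 0.799% ± 0.0765 after normal exosomes and 0.982% ± 0.163 after LPS exosomes. The LPS exosome libraries were at 0.816%, 0.988% and 1.14%, of which the last 2 lay above the 7 other libraries. Scaled to equal totals, its log2 fold change between the exosome groups turned from -0.061 to 0.29 (limma adjusted p = 0.443), and that between normal exosomes and PBS from 0.22 to -0.0083. The opposite arm, mle-miR-71-3p_R-1_1ss10TC, was listed in every library but only at 10.2 to 22.2, which stands for 18 to 48 inferred reads. The 5p arm was 1774 to 4483 times as abundant as this 3p line. In its 3 contrasts the 3p line had log2 fold changes between -0.17 and 0.22, and the group values overlapped.

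The main miR-2b line was the most abundant and varied more, with 2.30 times the lowest value in the highest library. It stood at 91495, 69127 and 64807 in the PBS libraries, at 103586, 69275 and 67152 after normal exosomes, and at 62034, 63002 and 45070 after LPS exosomes. All 3 LPS exosome libraries lay below all 6 others, and PBS replicate 1 and normal exosomes replicate 1 lay above the rest. Neither difference passed the test. The log2 fold change with LPS exosomes was -0.41 against PBS (95% interval -0.90 to 0.09; limma adjusted p = 0.307) and -0.48 against normal exosomes (-0.98 to 0.01; limma adjusted p = 0.315). The first was -0.26 without PBS replicate 1, -0.25 without LPS exosomes replicate 3 and -0.28 with equal totals. The second was -0.28 without normal exosomes replicate 1 and -0.13 with equal totals. As shares of the library the groups overlapped, at 1.54% ± 0.517 in PBS, 1.36% ± 0.241 after normal exosomes and 1.23% ± 0.137 after LPS exosomes.

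miR-2a followed another order. mle-miR-2a-3p_R-1 stood at 21662, 20896 and 25161 in the PBS libraries, at 37067, 32044 and 28659 after normal exosomes, and at 26100, 28074 and 24642 after LPS exosomes. All 3 normal exosome libraries lay above the 6 others, while PBS and LPS exosomes overlapped. As shares of the library, normal exosomes (0.585%, 0.559% and 0.523%) still lay above PBS (0.505%, 0.359% and 0.502%). LPS exosomes, at 0.495%, 0.617% and 0.616%, then overlapped with both. Against PBS the normal exosome group had a log2 fold change of 0.53 (95% interval 0.21 to 0.84, unadjusted p = 0.0043), which did not pass after adjustment over 162 lines (limma adjusted p = 0.0632). It was 0.30 with equal totals (limma adjusted p = 0.515). LPS exosomes differed from PBS by 0.22 (-0.09 to 0.54; limma adjusted p = 0.393) and from normal exosomes by -0.30 (-0.62 to 0.01; limma adjusted p = 0.319), and the last value was 0.045 with equal totals.

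**Figure D2:**
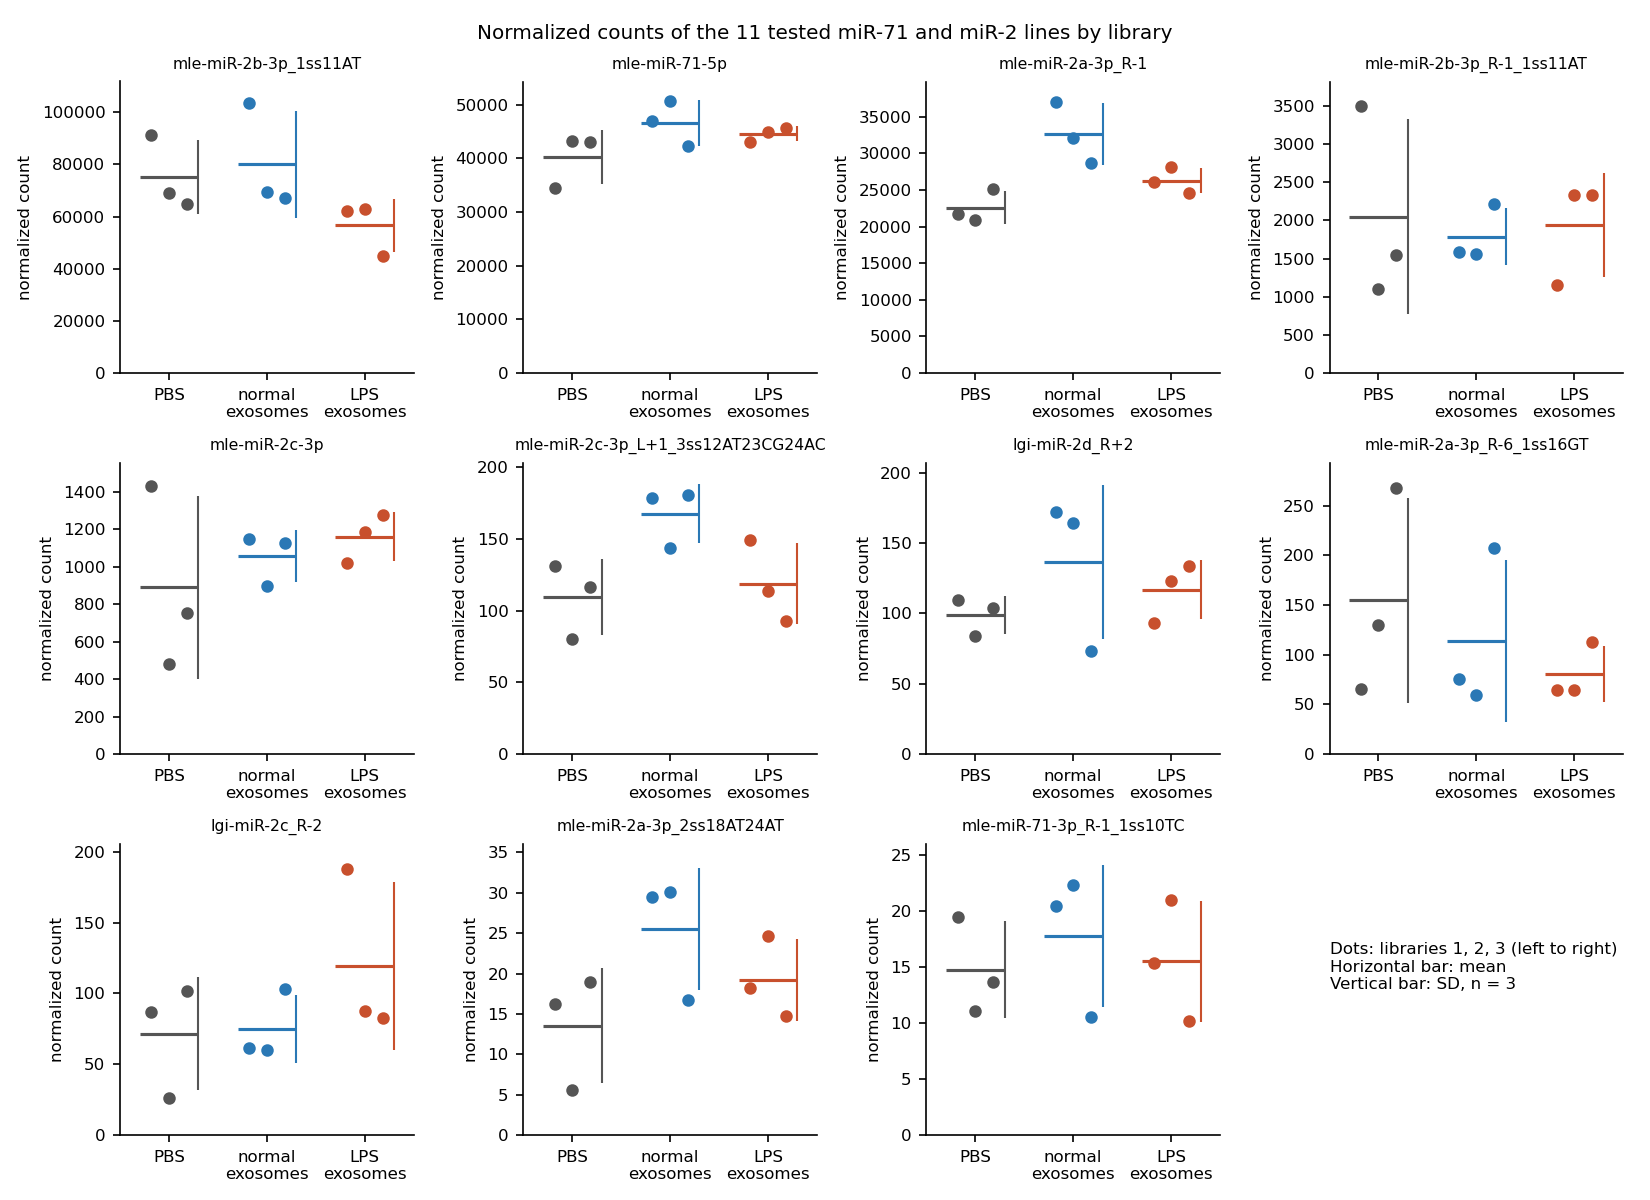
Normalized counts (linear axes from 0) of the 11 members with enough signal to be tested, in the PBS, normal exosome and LPS exosome libraries; dots are libraries 1 to 3 from left to right, horizontal bars means and vertical bars SD (n = 3). mle-miR-2b-3p_1ss11AT lies at 45070 to 63002 with LPS exosomes and at 64807 or more elsewhere, mle-miR-2a-3p_R-1 is highest with normal exosomes, and mle-miR-71-5p overlaps between groups.

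Ratios within a library do not depend on how libraries were scaled. miR-71-5p per main miR-2b line was 0.377, 0.626 and 0.665 in PBS, 0.453, 0.733 and 0.629 with normal exosomes, and 0.695, 0.714 and 1.01 with LPS exosomes. LPS exosomes replicate 3 had about as much miR-71-5p as miR-2b, and all LPS exosome libraries lay above all PBS libraries. The log2 ratio was 0.56 higher with LPS exosomes than with PBS (-0.33 ± 0.305 against -0.89 ± 0.449, SD, n = 3 each; two-sided exact permutation p = 0.1, the smallest that 3 against 3 libraries allow, and 0.6 after Benjamini-Hochberg adjustment over the 6 ratio and share tests). Without PBS replicate 1 that difference was 0.30. The difference was 0.14 between normal exosomes and PBS (exact permutation p = 0.6, adjusted 0.7) and turned to -0.12 without PBS replicate 1. Between LPS exosomes and normal exosomes it was 0.42 (exact permutation p = 0.3, adjusted 0.6).

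The ratio of miR-2a to the main miR-2b line was looked at after these values had been seen, so it carries no test. It was 0.237, 0.302 and 0.388 in PBS, 0.358, 0.463 and 0.427 with normal exosomes, and 0.421, 0.446 and 0.547 with LPS exosomes. The LPS exosome libraries lay above all PBS libraries, and normal exosomes overlapped with both. This ratio and that of miR-71-5p share their denominator, the main miR-2b line, so they are not separate observations. On the deposited scale miR-2b lay wholly lower with LPS exosomes than with PBS, while miR-71-5p and miR-2a overlapped between these groups. As shares of the library, miR-2b overlapped too. With equal totals the log2 fold changes of LPS exosomes against PBS were -0.28 for miR-2b, 0.28 for miR-71-5p and 0.35 for miR-2a. Which side of the ratios moved was not tested. miR-71-5p per miR-2a was 1.79 ± 0.249 in PBS, 1.44 ± 0.162 after normal exosomes and 1.70 ± 0.134 after LPS exosomes (SD, n = 3). The normal exosome libraries (highest 1.585) lay just below all PBS and LPS exosome libraries (lowest 1.594 and 1.603), and PBS and LPS exosomes overlapped.

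The ends of miR-2b were compared through its 22-base form, which lacks the last base. mle-miR-2b-3p_R-1_1ss11AT stood at 3502, 1103 and 1540 in PBS, at 1586, 1559 and 2215 after normal exosomes, and at 1154, 2338 and 2333 after LPS exosomes. It made up 3.69%, 1.57% and 2.32% of both forms in PBS, 1.51%, 2.20% and 3.19% after normal exosomes and 1.83%, 3.58% and 4.92% after LPS exosomes. These shares varied about as much within a group as between groups. LPS exosomes were 0.916 percentage points above PBS (exact permutation p = 0.5, adjusted 0.7) and 1.14 above normal exosomes (p = 0.3, adjusted 0.6; exact permutation test), and normal exosomes were -0.226 from PBS (exact permutation p = 0.7, adjusted 0.7), which turned to 0.355 without PBS replicate 1.

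Of the miR-2b sequence lines, the 18-base form held 0.0693% to 0.401% and the form with 1 more 5′ base 0.114% to 0.259%. The 18-base form was highest in replicate 3 of every group, at 267.9, 208.0 and 112.8 for PBS, normal exosomes and LPS exosomes, against 59.3 to 130.1 in the 6 other libraries. The 5′ extended form stood at 131.4, 80.5 and 116.6 in PBS, at 178.2, 143.7 and 180.7 after normal exosomes, and at 148.9, 114.0 and 92.9 after LPS exosomes. The normal exosome libraries lay above the PBS libraries (log2 fold change 0.63 ± 0.31, SE; limma adjusted p = 0.361) and overlapped with LPS exosomes. With equal totals the difference between normal exosomes and PBS was 0.41, and as shares of the library these groups overlapped.

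**Figure D3:**
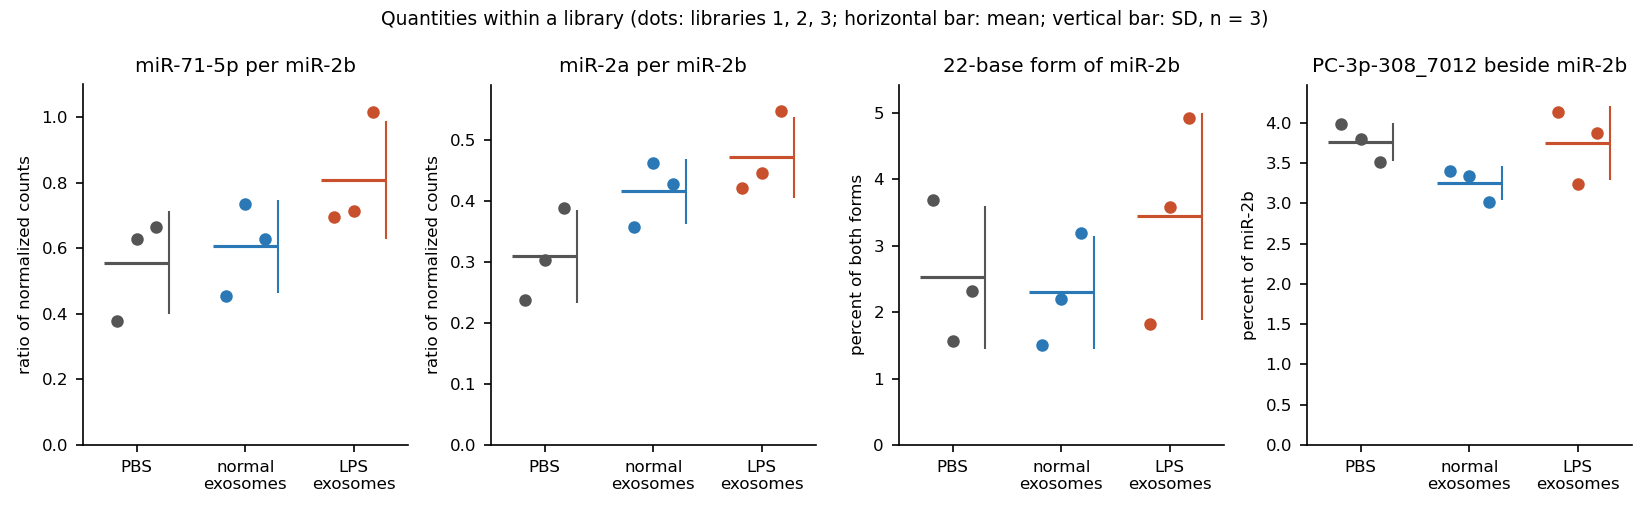
Quantities formed within a library, by group: miR-71-5p per miR-2b, miR-2a per miR-2b, the 22-base form as a percent of both miR-2b forms, and the predicted line PC-3p-308_7012 as a percent of miR-2b; dots are libraries 1 to 3, horizontal bars means and vertical bars SD (n = 3). Both ratios are higher in every LPS exosome library than in any PBS library, while the shares of the 22-base form (1.51% to 4.92%) overlap. The ratios share miR-2b as denominator and are not separate observations.

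miR-2c was a minor form. mle-miR-2c-3p stood at 1432, 481.9 and 755.4 in PBS, at 1150, 896.3 and 1125 after normal exosomes, and at 1020, 1188 and 1277 after LPS exosomes. PBS held both the highest and the lowest of the 9 values. Its 21-base form lgi-miR-2c_R-2 ran from 26.5 in PBS replicate 2 to 187.9 in LPS exosomes replicate 1, a library that stood apart, and made up 5.06% to 15.6% of both forms. lgi-miR-2d_R+2, the longer miR-2a line, ran from 73.4 to 172.5, both in normal exosome libraries. The variant mle-miR-2a-3p_2ss18AT24AT was lowest in PBS replicate 2 (5.51) and highest in normal exosomes replicate 2 (30.1). The 3 lines that were not tested were each listed in 1 library, mle-miR-2b-3p_1ss9CT at 6.49 in PBS replicate 1, mle-miR-2a-3p_R-5_1ss18AT at 3.50 in normal exosomes replicate 3 and mle-miR-2a-3p_L-4R-1_1ss18AT at 3.24 in normal exosomes replicate 2. The lowest listed value stood for 5 inferred reads, except in normal exosomes replicate 3 (3.33). If lower values were dropped, a value listed at 0 can hide up to 4 reads. A value this low cannot show a difference.

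Over the 11 tested members, 0 passed limma's test at an adjusted p under 0.05 in any of the 3 contrasts, where 4.32% of the 162 tested lines passed in each. At an unadjusted p under 0.05 there was 1 member, miR-2a with normal exosomes against PBS, against 24.1%, 16.7% and 16% of all tested lines for LPS exosomes against PBS, normal exosomes against PBS and LPS against normal exosomes. Against PBS, 9 members had a log2 fold change above 0 and 2 below 0 with each kind of exosome. Several of these lines are nested forms of the same sequence, so such counts are not of separate observations. The members' median was 0.15 with LPS exosomes (all tested lines -0.057) and 0.23 with normal exosomes (all tested lines -0.0042). Both comparisons share the PBS libraries. Between the exosome groups the median was -0.17, with 3 above and 8 below 0, beside -0.15 for all tested lines.

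The members whose groups lay apart were few in each contrast. With LPS exosomes against PBS, 1 of 11 members lay wholly lower (miR-2b; 17.3% of all tested lines) and 0 wholly higher (11.7% of all tested lines). With normal exosomes against PBS, 2 lay wholly higher (miR-2a and the 5′ extended miR-2b; 13% of all tested lines) and 0 wholly lower (12.3% of all tested lines). Between the exosome groups, 2 lay wholly lower with LPS exosomes (miR-2a and miR-2b; 13% of all tested lines) and 0 wholly higher (12.3% of all tested lines). Scaling to equal totals moved the median of all lines from -0.0042 to -0.22 for normal exosomes against PBS and from -0.15 to 0.16 between the exosome groups. The members' medians in these 2 contrasts moved from 0.23 to 0.0082 and from -0.17 to 0.16. The direction between the exosome groups thus holds only for the deposited scale, and that against PBS was nearly lost. For normal exosomes against PBS the members' median stayed above that of all lines. For LPS exosomes against PBS the median of all lines moved from -0.057 to 0.068 and that of the members from 0.15 to 0.28. In bulk hemocytes, fewer cells of a type and less RNA per cell cannot be told apart.

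**Figure D4:**
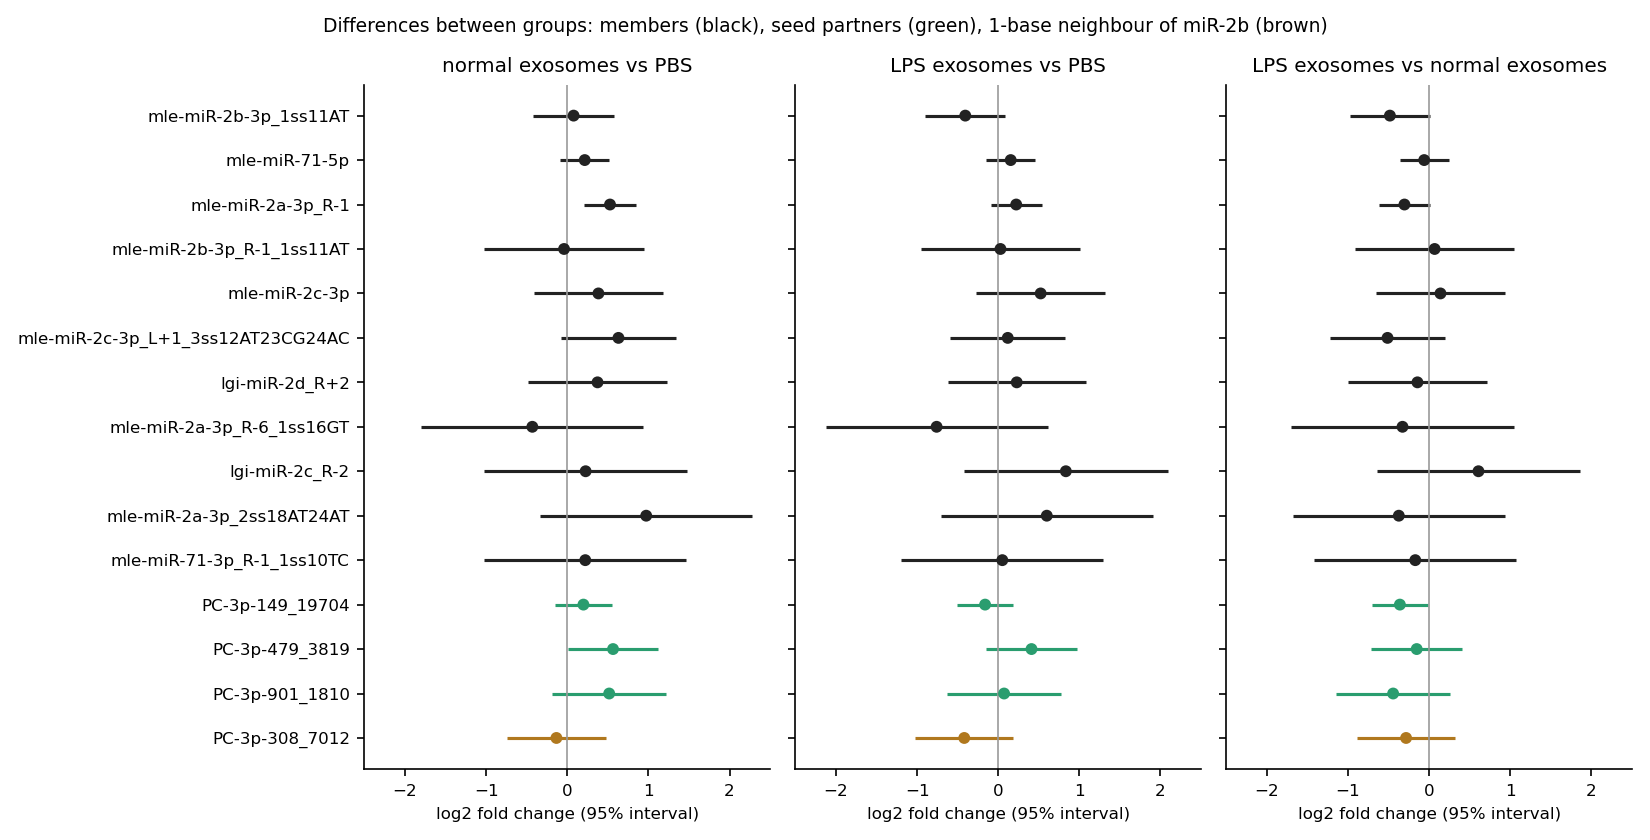
Log2 fold changes with 95% intervals (limma) for 3 contrasts, for the 11 tested members (black), 3 predicted lines that share the miR-2 seed (green) and the 1-base neighbour of miR-2b (brown). Intervals are narrow for the abundant lines and reach from -2.13 to 2.28 among the members for the low ones; mle-miR-2a-3p_R-1 with normal exosomes against PBS is the member whose interval (0.21 to 0.84) lies off 0.

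Predicted lines outside the family names carried the same seed. There were 4, of which 3 were tested. These 3 are shown, followed by another predicted line whose seed differs from that of miR-2b by 1 base.
PC-3p-149_19704: tATCACAGcctgcttggacagt
PC-3p-479_3819: tATCACAGcagcttggtcagtg
PC-3p-901_1810: tATCACAGtcagctttgatcagc
PC-3p-308_7012: tATCACGGcctgctttgatgagc
PC-3p-149_19704 is 1 edit from mle-miR-2a-3p_R-1, with the same first 18 bases and 1 base fewer. PC-3p-479_3819 is at least 4 edits from any member. PC-3p-901_1810 differs from mle-miR-2b-3p_1ss9CT by G20C, counted from the 5′ end with the miR-2b base first. The untested one, PC-3p-23124_40, is the main miR-2b line with 3 more bases at the 3′ end and reached 5.95 at most. PC-3p-308_7012, the last one shown, is not a seed partner: it differs from mle-miR-2b-3p_1ss11AT by A7G, with the miR-2b base first, and that base lies in the seed.

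PC-3p-149_19704 stood at 2537, 3089 and 3022 in PBS, at 3639, 3108 and 3167 after normal exosomes, and at 2617, 2674 and 2415 after LPS exosomes. The normal exosome libraries lay above all others. It made up 9.52% to 14.8% of the level of miR-2a, at 12.8% ± 1.69 in PBS, 10.2% ± 0.750 after normal exosomes and 9.78% ± 0.253 after LPS exosomes (SD, n = 3), so the PBS libraries lay above both other groups in this share. PC-3p-479_3819 (437.95 to 1030) and PC-3p-901_1810 (226.7 to 472.2) also lay wholly higher with normal exosomes than with PBS, as did 13% of all tested lines. Their log2 fold changes were 0.56 and 0.52 against 0.20 for PC-3p-149_19704. With equal totals these values were 0.34, 0.29 and -0.024. As shares of the library, normal exosomes and PBS overlapped for all 3 lines. PC-3p-479_3819 also lay wholly higher with LPS exosomes (630.2 to 840.7) than with PBS, as did 11.7% of all tested lines. Its log2 fold change there was 0.41 (limma adjusted p = 0.380), and 0.54 with equal totals. As shares of the library, its LPS exosome values (0.0133% to 0.0185%) also lay above those of PBS (0.00997% to 0.0125%). None of the 3 lines passed in any contrast (lowest limma adjusted p = 0.287).

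Of 143 tested sequences outside the family, the one whose log2 values over the 9 libraries were most like those of the main miR-2b line was PC-3p-308_7012, its 1-base neighbour (Pearson's r = 0.907, Spearman's rho = 0.733). It stayed the most alike with equal totals (r = 0.902). Next were mle-miR-1175-3p (0.812) and PC-3p-83_47257 (0.737), which ranked 4 and 16 with equal totals. The libraries share their scaling and their groups, so these values are a description. PC-3p-308_7012 stood at 3650, 2624 and 2281 in PBS, at 3522, 2317 and 2024 after normal exosomes, and at 2562, 2044 and 1745 after LPS exosomes, which is 3.01% to 4.13% of miR-2b. That fraction was 3.77% ± 0.236 in PBS, 3.25% ± 0.209 after normal exosomes and 3.75% ± 0.456 after LPS exosomes (SD, n = 3), with all normal exosome libraries below all PBS libraries. Among the 143 sequences, 10 had a tested neighbour outside the family of the same length 1 substitution away, and for 2 of these the neighbour was at least 10 times higher in mean.

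For miR-71-5p the most alike lines were aca-miR-148a-3p (Pearson's r = 0.904, Spearman's rho = 0.617), cte-miR-100_R+1_2ss9CT11AT (0.868 and 0.700) and aca-miR-122-5p_R+1 (0.858 and 0.867), over the same 9 libraries. With equal totals their r fell to 0.00708, 0.276 and 0.439, at ranks 109, 73 and 44 of 143, so the likeness of miR-71-5p to these lines depends on the deposited scaling.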

How the data were processed

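Hemocyte small RNA went into TruSeq small RNA libraries that were read on a HiSeq, and the ACGT101-miR program filtered out adapter products, repeats and reads of other RNA classes, per the labels' protocols. The authors deposited 1 signal value per line and library, called a normalized count in the file headers. For aligner, genome build, miRBase release and scaling: not given in the sources used here. Values are whole multiples of 1 step per library for 99.55% of 1990 values above 0 (tolerance 0.01 reads), so read numbers given are inferred; no counting interval is given, and count tests were not run. Here limma 3.58.1 (R 4.3.3, statmod 1.5.0; trend and robust settings) was run on log2(value + 1) over 9 libraries and 3 group means, for the 162 lines with a value of at least 10 in at least 3 libraries, with Benjamini-Hochberg adjustment over these; low lines' fold changes are understated. Of the 14 members, 11 passed this filter. The fit was run on simulated data, drawn independently for each line and library without differences in library scaling, and no detection rate is given here. Ratios and shares were compared by exact permutation. The rule for named lines was every member, seed partners (same bases 2 to 8), and the 3 most alike sequences for miR-71-5p and miR-2b; lines 1 base from a member were added later. Members and lists were chosen with earlier results of these data known. The replicate numbers were not taken as pairs across groups, and the labels do not say whether they are.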

Additional observations from a re-analysis of the deposited data

How the results depend on the processing

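In the 20 alternatives to each contrast, 0 members were called in any, as in the reported fits; the lowest limma adjusted p was 0.0593, for miR-2a with normal exosomes against PBS when lines that share a sequence were kept once. The number of all lines called moved more, from 0 to 10, 2 to 12 and 1 to 10 for LPS exosomes against PBS, normal exosomes against PBS and LPS against normal exosomes. The planned edgeR and DESeq2 fits were not run, since the deposited values are normalized and read numbers could only be inferred from them. With the replicate number as a replicate block, 0 members were called. The limma adjusted p of the main miR-2b line was then 0.185 for LPS exosomes against PBS and 0.159 between the exosome groups. Same-numbered libraries had deviations that correlated at -0.303 to 0.291. The numbers were not taken as pairs, but these values do not settle whether they are.

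Scaling to equal totals turned the log2 fold change of normal exosomes against PBS to -0.15 for mle-miR-2b-3p_1ss11AT, -0.0083 for miR-71-5p and -0.024 for PC-3p-149_19704. Between the exosome groups it turned to 0.045 for mle-miR-2a-3p_R-1, 0.017 for mle-miR-2a-3p_R-6_1ss16GT, 0.29 for miR-71-5p, 0.16 for miR-71-3p, 0.20 for lgi-miR-2d_R+2, 0.20 for PC-3p-479_3819 and 0.065 for PC-3p-308_7012. None of these was called, and the cause was not tested.

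Leaving out each library in turn gave these ranges of log2 fold change where a direction turned. For LPS exosomes against PBS they were -0.33 to 0.50 (mle-miR-2b-3p_R-1_1ss11AT), -0.087 to 0.28 (mle-miR-2c-3p_L+1_3ss12AT23CG24AC), -0.18 to 0.30 (miR-71-3p) and -0.23 to 0.27 (PC-3p-901_1810). For normal exosomes against PBS they were -0.40 to 0.44 (mle-miR-2b-3p_R-1_1ss11AT), -0.12 to 0.23 (mle-miR-2b-3p_1ss11AT), -0.97 to 0.076 (mle-miR-2a-3p_R-6_1ss16GT), -0.37 to 0.58 (lgi-miR-2c_R-2) and -0.37 to 0.058 (PC-3p-308_7012). Between the exosome groups they were -0.10 to 0.41 (mle-miR-2b-3p_R-1_1ss11AT), -0.68 to 0.21 (mle-miR-2a-3p_R-6_1ss16GT), -0.13 to 0.0019 (miR-71-5p), -0.49 to 0.081 (miR-71-3p), -0.54 to 0.071 (lgi-miR-2d_R+2) and -0.30 to 0.027 (PC-3p-479_3819). The log2 ratio of miR-71-5p to miR-2b ran from 0.30 to 0.71 for LPS exosomes against PBS, -0.12 to 0.33 for normal exosomes against PBS and 0.23 to 0.58 between exosome groups, and the share of the 22-base miR-2b form from 0.177 to 1.72, -0.704 to 0.355 and 0.402 to 1.95 percentage points. Summing all miR-2 sequences gave log2 ratios of 0.38, 0.027 and 0.35. The lowest lines rest on 10 to 65 inferred reads a library, which limits what can be seen of them.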
